A study of Homo sapiens with 12 samples.

Results

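Interferon-stimulated genes are the end products of interferon signalling, and 38 of them were followed here through treatment of 2 human prostate cancer lines with palbociclib. The set holds effector genes outside the OAS, IFIT, IFITM, sensor and STAT families. Its members were taken by gene name, with earlier results of these data known, from 56747 genes listed in both count tables, and all 38 were found in each. Its members fall into the ISG15 system (5), GTPases (5), membrane and secreted proteins (3), RNA and nucleotide enzymes (7), PARP enzymes with DTX3L (5), nuclear body and TRIM proteins (4), the SAMD9 pair (2) and the IFI genes with XAF1 and EPSTI1 (7).

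Palbociclib inhibits the cell-cycle kinases CDK4 and CDK6. C4-2 is a castration-resistant line of the LNCaP lineage. DU145 was established from a metastasis to the brain and is known to lack functional RB1. That protein holds back the cell cycle until CDK4 and CDK6 inactivate it. RNA was sequenced from each line after palbociclib and after the solvent dimethyl sulfoxide (DMSO) alone, at 3 libraries per group, with all cells grown in RPMI medium with fetal bovine serum. The labels name no genetic change, dose or duration. Whether replicate libraries were grown apart is not stated either, and p-values therefore measure only how these libraries scatter, which may be technical.

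Type I interferons bind IFNAR1 and IFNAR2, type III interferons bind IFNLR1 with IL10RB, and interferon gamma binds IFNGR1 and IFNGR2. The kinases JAK1, JAK2 and TYK2 then phosphorylate STAT proteins, which bind the interferon-stimulated response element (ISRE) together with IRF9, or the gamma-activated site (GAS) without it. The genes switched on in this way block viral entry, RNA, translation and budding, and several feed back on the pathway. Many tumour lines keep some of these genes on without added interferon.

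The column for C4-2 DMSO replicate 3 held 0 for every gene, so 11 libraries were used, with 3 palbociclib and 2 DMSO libraries in C4-2. Libraries labelled C4-2 summed to between 2608851 and 3489659 counts, those labelled DU145 to between 16108999 and 16674393. Levels are given as CPM, the count scaled by the library total. With 3 counts as the limit for a gene at 0, and for counting error only, a level of up to 0.86 to 1.15 CPM could go unseen in C4-2 and of up to 0.18 to 0.186 CPM in DU145. The luminal markers KLK3, KLK2 and FOLH1 were at 0 in all 11 libraries, which goes against the C4-2 label, so groups are named by their labels only. Both DU145 libraries numbered 3 stood apart from the others of their groups, with a chi-square per degree of freedom of 5.41 to 8.34 in pairs holding them against 2.36 and 2.37 between the others. Within the C4-2 groups it was 1.14 to 1.18, close to counting error alone, and the C4-2 p-values rest on that small scatter. Of the 8 leukocyte markers, 2 were at 0 in all libraries labelled C4-2 and 3 in all labelled DU145, among these PTPRC and CD3E in DU145. The list summed to 1.38 to 3.45 CPM in C4-2, and in DU145 to 2.99 to 4.15 CPM with DMSO and 7.52 to 8.27 CPM with palbociclib. CD14 had 5 to 6 counts per DU145 library with DMSO and 52 to 68 with palbociclib, and summed epithelial markers were 1045 to 1053 CPM with DMSO and 412 to 447 with palbociclib in C4-2 and 3221 to 3563 and 2068 to 2213 in DU145. Summed fibroblast markers in C4-2 were 253 to 283 and 166 to 215 CPM. Nearly all of that was COL1A1 (mean 220 CPM), with the other fibroblast markers at means of 0.118 to 2.69 CPM. The C4-2 epithelial sum was nearly all KRT8 and KRT18 (means of 566 and 109 CPM), with the others at 0 to 1.9 CPM. In DU145 it was nearly all KRT8, KRT7 and KRT18. The part of these shifts in the members' changes was not tested. In bulk RNA, fewer cells expressing a gene and less of its RNA per cell cannot be told apart.

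The stretches below show what lies upstream of members whose responses to palbociclib ran together or apart. RefSeq windows of the GRCh38.p14 build, from 250 bases before to 50 bases after each start, were found for 31 of the 38 members. USP18, PARP10, ZNFX1, MX2, TRIM22, UBA7 and GBP2 had none in the table. Capitals mark matches to the ISRE core, spelled GAAANNGAAA and searched on both strands, and in BST2, IFI27 and PARP14 also to the GAS core, TTCNNNGAA, which reads alike on both strands. Matches of either motif may overlap each other. The first 3 stretches belong to genes that rose in both lines, ISG15 (chr1:1013347-1013421, plus strand), BST2 (chr19:17405741-17405770, minus strand) and IFI27 (chr14:94110606-94110665, plus strand).
ISG15: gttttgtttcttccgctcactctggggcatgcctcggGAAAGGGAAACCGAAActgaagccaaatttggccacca
BST2: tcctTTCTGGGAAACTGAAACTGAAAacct
IFI27: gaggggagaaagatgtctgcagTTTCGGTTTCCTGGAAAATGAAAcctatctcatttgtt

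The next set belongs to members that rose in the libraries labelled C4-2 and fell in those labelled DU145. They are IFI6 (chr1:27672263-27672362, minus strand), DDX60 (chr4:168318809-168318852, minus strand), DDX60L (chr4:168480523-168480592, minus strand), SAMD9 (chr7:93118080-93118139, minus strand), LGALS3BP (chr17:78979962-78979991, minus strand), PARP14 (chr3:122680796-122680825, plus strand) and PARP9 (chr3:122564322-122564351, minus strand). SAMD9L (chr7:93148486-93148545, minus strand), which fell furthest in DU145, is shown at the same distance from its start as SAMD9. Its printed stretch and its whole window held no match. The stretches of BST2, LGALS3BP, PARP14 and PARP9 lie within exons of the GENCODE annotation and the others outside them.
IFI6: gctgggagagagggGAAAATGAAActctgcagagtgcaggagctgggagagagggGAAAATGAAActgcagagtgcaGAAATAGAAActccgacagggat
DDX60: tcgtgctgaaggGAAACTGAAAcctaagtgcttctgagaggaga
DDX60L: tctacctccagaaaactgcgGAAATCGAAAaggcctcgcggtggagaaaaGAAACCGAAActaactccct
SAMD9: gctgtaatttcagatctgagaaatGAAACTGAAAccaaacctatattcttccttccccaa
SAMD9L: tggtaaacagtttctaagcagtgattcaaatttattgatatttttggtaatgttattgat
LGALS3BP: gtggtttctgGAAATCGAAAgtagactctt
PARP14: gttTTCCAGGAAacGAAAGCGAAAgagtca
PARP9: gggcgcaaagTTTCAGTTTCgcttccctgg

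The last set belongs to the members with the highest fold rise in C4-2, IFI44L (chr1:78620259-78620381, plus strand) and EPSTI1 (chr13:42992272-42992321, minus strand), which had 1 count and 0 counts in all DU145 libraries together. The IFI44L window held an exact repeat of 85 bases whose copies start 91 bases apart, at 189 and 98 bases before the start. A repeat at least as long was found in 0.094% of all 35116 windows. Each copy carries the same ISRE core match, and the printed stretch ends inside the second. In EPSTI1 a GAS core match, whose first bases are left in lower case, runs into the ISRE core match. IFI6 held a repeat of 29 bases with an ISRE core match in each copy, a length reached by 0.883% of windows.
IFI44L: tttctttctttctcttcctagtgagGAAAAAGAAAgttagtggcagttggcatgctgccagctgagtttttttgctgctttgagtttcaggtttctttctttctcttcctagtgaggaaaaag
EPSTI1: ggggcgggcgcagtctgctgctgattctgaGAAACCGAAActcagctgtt

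The ISRE core was found in the windows of 23 of 31 members (74.2%) against 4.38% of 27305 genes with a window. The GAS core was found in 10 of 31 members (32.3%) against 9.38%. Members are interferon-stimulated by choice, and a match is a description of these letters and not a bound site. By response, the ISRE core was in 3 of 3 members with a window that rose in both lines, 9 of 12 that rose in C4-2 and fell in DU145, 3 of 5 that rose in C4-2 and were not called in DU145, and 6 of 8 that rose in C4-2 and were too low to test in DU145. PARP9 and DTX3L, which lie head to head, share the same 10 bases at chr3:122564332-122564341.

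**Figure D1:**
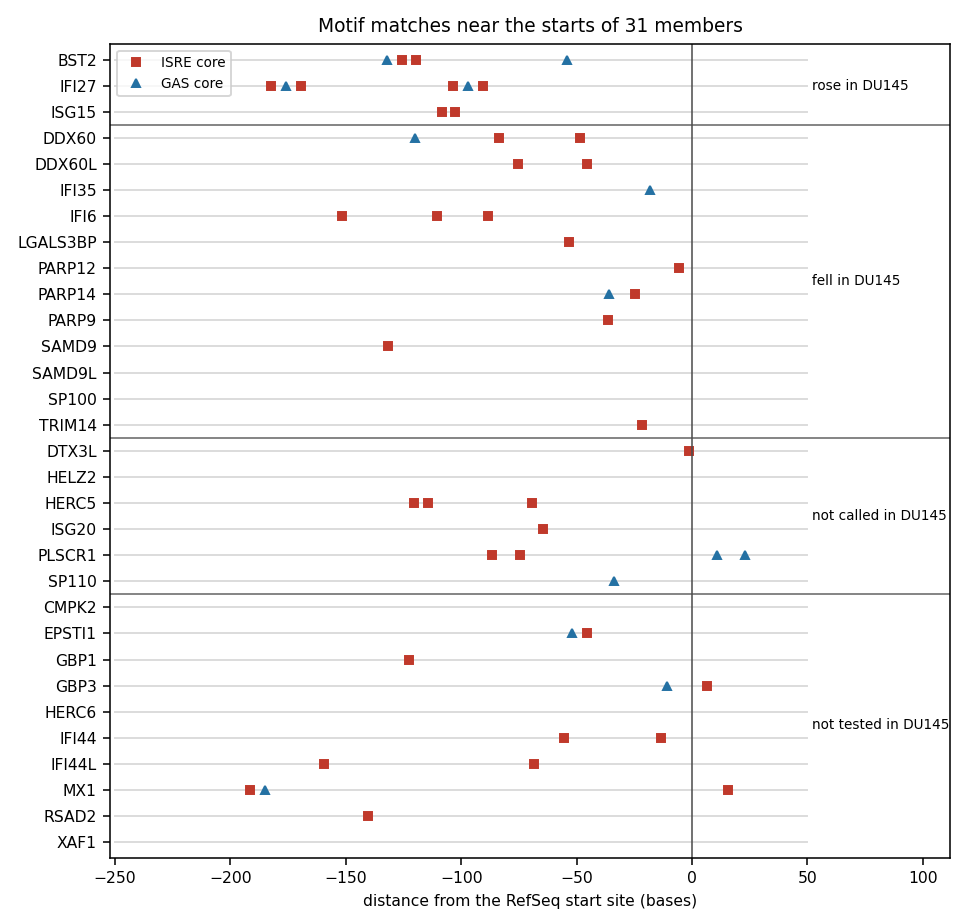
Position of each ISRE core match (squares) and GAS core match (triangles) in the RefSeq windows of 31 members, in bases from the start site; members are grouped by their call in DU145, and a gene with several windows shows each match at its distance from each start. Of the 12 members shown that fell in DU145, 9 hold an ISRE core match, and SAMD9L and SP100 show none of either motif.

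In the libraries labelled C4-2, the set moved upward almost as a whole after palbociclib. Of 37 members tested, 34 were higher, 1 was lower and 2 did not pass, with a median log2 fold change of 0.92 (edgeR's quasi-likelihood test, Benjamini-Hochberg adjustment at 0.05 over all genes). Among all 11943 genes tested in these libraries, 25.2% were called higher and 26.6% lower (51.8% in all), with a median of 0.0015. A rise of at least 2-fold was called for 17 members, against 5.14% of all genes, and a fall of that size for none, against 4.58%. XAF1 was too low to test, at 1 and 2 counts with DMSO and 6, 7 and 9 with palbociclib. CMPK2, IFI27 and MX1 had at most 6, 9 and 10 counts per DMSO library and passed the filter through their palbociclib libraries. Their rises, which are among those counted, may therefore be partly selected by the filter. With DESeq2 in place of edgeR 27 members were higher and 0 lower, and 3793 of all genes were called in place of 6184.

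The libraries labelled DU145 gave a mixed picture in which falls outnumbered rises. Of 25 members tested, 5 were higher, 14 lower and 6 not called, with a median log2 fold change of -0.34. Among all 15361 genes tested there, 28.8% were higher and 29.2% lower (58.1% in all), with a median of -0.01. Falls of at least 2-fold were called for 6 members (7.38% of all genes) and rises of that size for 3 (6.0% of all genes). The other 13 members were too low to test, with IFI44, XAF1, CMPK2, EPSTI1 and GBP1 at 0 in all 6 libraries and IFI44L, MX2 and RSAD2 at 1 count in total. Without both DU145 libraries numbered 3, 6 members were higher and 14 lower. Over all genes 4656 were then higher and 4687 lower of 15544 tested, against 4431 and 4493 in the main fit.

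Of the 25 members tested in both lines all but HERC5 were higher in C4-2, so the pairing of calls follows almost wholly from DU145: 14 of these were lower there (29.2% of all genes), 5 higher (28.8%) and 5 not called. The difference between the responses, tested as the interaction of line and treatment in a joint fit, was lower in DU145 for 17 of the 25 members tested in both lines and higher for 1. Over all 11007 genes tested in both, 21.9% were called lower in DU145 and 28.7% higher (50.6% in all), and the medians were -1.02 for the members and 0.06 for all genes. A difference of at least 2-fold was called for 13 members as lower (9.16% of all genes) and for 1, UBA7, as higher (8.66%). Without both DU145 libraries numbered 3, 18 members were lower and 2 higher. Over all 11007 genes the lower calls then went from 2412 to 2951 and the higher calls from 3161 to 3320.

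**Figure D2:**
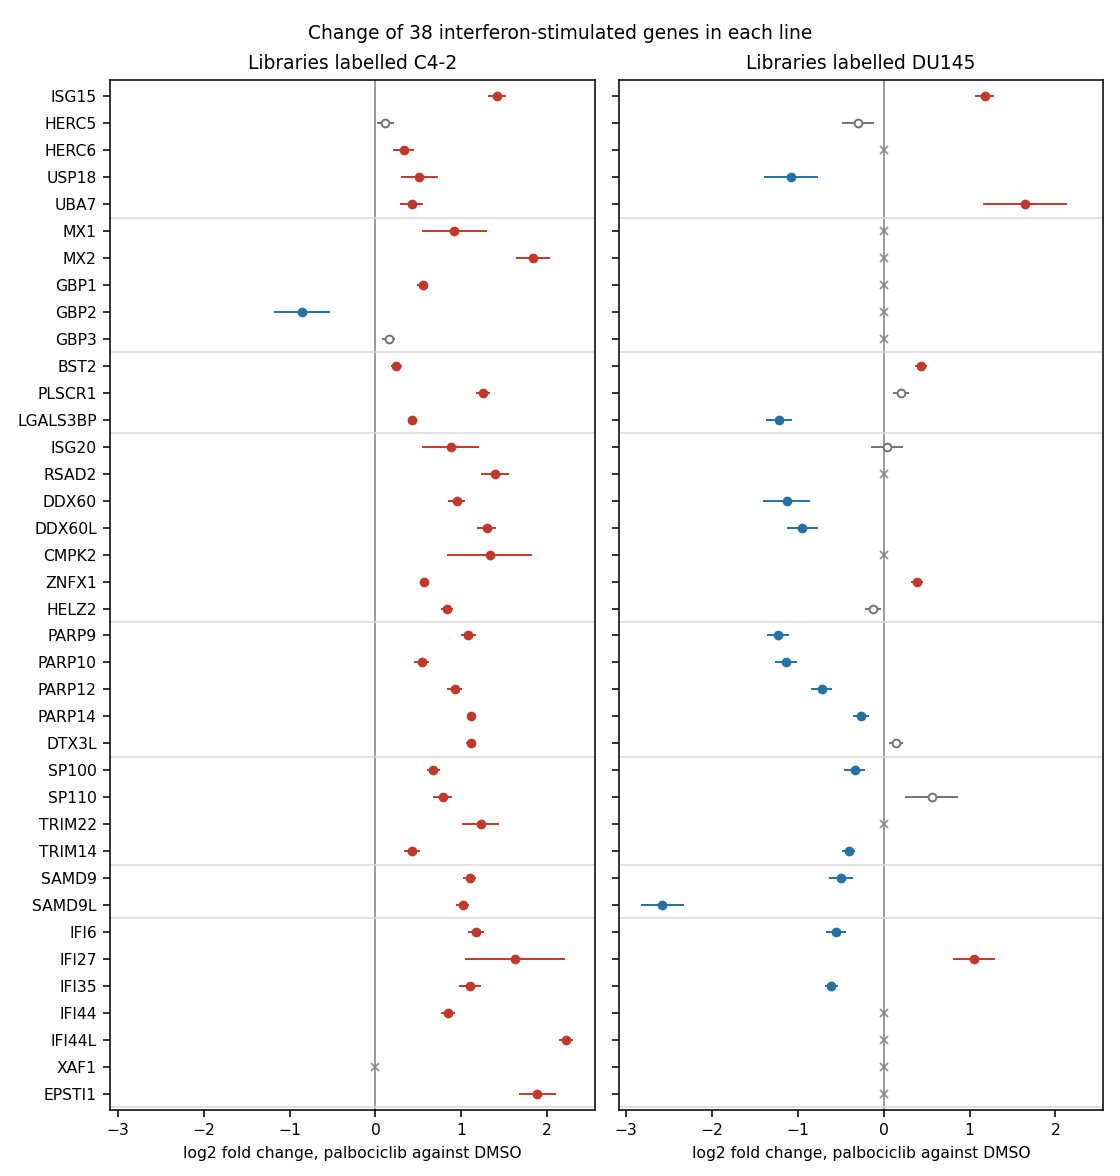
Log2 fold change of palbociclib against DMSO for the 38 members in the libraries labelled C4-2 (left, n = 3 against 2) and DU145 (right, n = 3 against 3), with bars of 1 standard error; filled red and blue points passed the test as higher or lower, open points did not, crosses at 0 mark members too low to test, and grey lines part the functional groups. In the left panel 34 points lie above 0 and are called, while the right panel shows 14 called falls and 5 called rises.

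**Figure D3:**
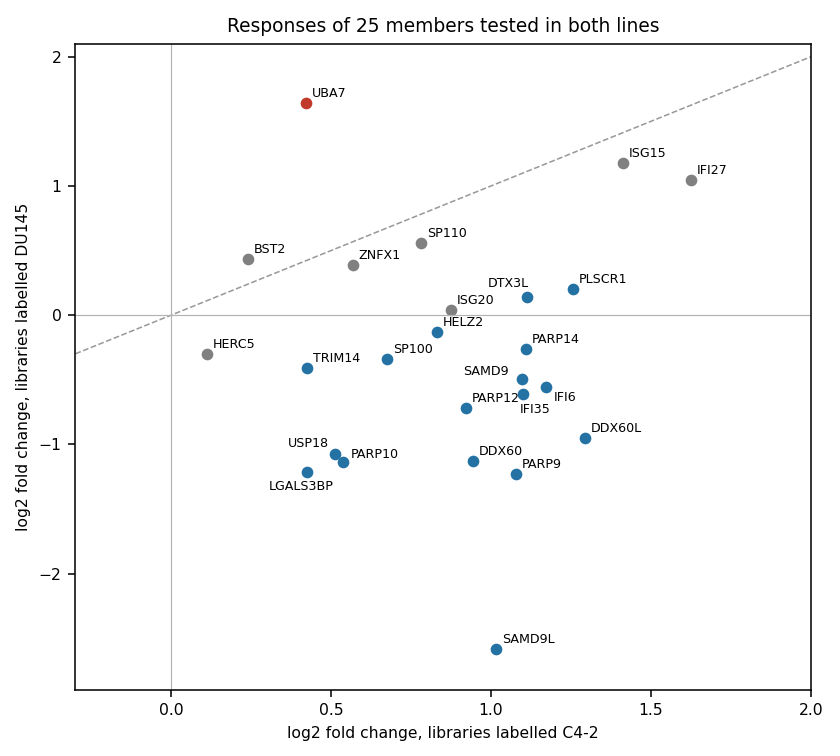
Log2 fold change in the libraries labelled DU145 (vertical) against C4-2 (horizontal) for the 25 members tested in both; blue points had a lower response in DU145 by the interaction test, the red point (UBA7) a higher one, grey points did not pass, and the dashed line marks equal responses. SAMD9L lies lowest, at 1.02 in C4-2 and -2.58 in DU145, while ISG15, at 1.41 and 1.18, lies near the dashed line.

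ISG15 is a ubiquitin-like protein that is joined to other proteins by the activating enzyme UBA7, the carrier UBE2L6 and the ligase HERC5, and removed by USP18, which also damps signalling at IFNAR2. ISG15 rose in both lines. It stood at 30.7 and 38.1 CPM with DMSO and 97.2, 86.6 and 97.1 CPM with palbociclib in C4-2, and at 12.6, 14.1 and 14.8 against 31.1, 27.2 and 33.9 CPM in DU145. Its lowest palbociclib library lay above its highest DMSO library in each line, and the log2 fold changes were 1.41 (SE 0.10, adjusted p = 2.53e-15) and 1.18 (SE 0.11, adjusted p = 6.3e-08). The interaction was -0.20 (adjusted p = 0.423) and did not pass.

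USP18 went in opposite directions. In C4-2 it had 12 and 9.28 CPM with DMSO and 13.8, 14.6 and 18.6 with palbociclib, a rise of 0.51 (SE 0.21, adjusted p = 0.0409). In DU145 it had 5.09, 2.11 and 3.96 CPM with DMSO and 2.47, 1.4 and 1.32 with palbociclib, a fall of 1.08 on the log2 scale (SE 0.31, adjusted p = 0.0067), with 1 palbociclib library inside the DMSO range. The C4-2 call was lost with DESeq2, with no filter, on leaving out palbociclib replicate 3 and on leaving out DMSO replicate 2 (adjusted p = 0.239, 0.0824, 0.22 and 0.283), and the DU145 call without DMSO replicate 1 (-0.80, adjusted p = 0.0582). Reads of USP18 are hard to place because of its near-identical copy USP41.

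UBA7 was the member whose response was higher in DU145 than in C4-2. It rose from 25.2 and 27.2 to 36, 36 and 36.4 CPM in C4-2 (0.42, adjusted p = 0.00644). In DU145 it rose from 0.124, 0.31 and 0.915 to 1.09, 1.46 and 1.68 CPM (1.65, adjusted p = 0.00687). UBA7 passed the DU145 filter through its palbociclib libraries, so that rise may be partly selected by the filter. The interaction of 1.25 (adjusted p = 0.022) rests on 2, 5 and 15 counts in the DU145 DMSO libraries. It was lost without C4-2 DMSO replicate 2 (1.22, adjusted p = 0.0544), DU145 palbociclib replicate 3 (1.09, adjusted p = 0.0537), DU145 DMSO replicate 1 (0.81, adjusted p = 0.131) or DU145 DMSO replicate 2 (1.03, adjusted p = 0.0798), and was 2.26 without DU145 DMSO replicate 3. Without that last library the DU145 rise of UBA7 itself was 2.69, and without both libraries numbered 3 it was 2.53. The C4-2 rise was lost with DESeq2 (adjusted p = 0.11) and on leaving out DMSO replicate 1 (0.36, adjusted p = 0.093).

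HERC5 had log2 differences of 0.11 in C4-2 (adjusted p = 0.363) and -0.30 in DU145 (adjusted p = 0.173), and neither passed. The HERC5 interaction of -0.38 (adjusted p = 0.152) did not pass either, and its call changed in 1 other setting. Its relative HERC6 rose by 0.33 in C4-2 (adjusted p = 0.021), a call lost with DESeq2, with no filter and on leaving out palbociclib replicate 1, palbociclib replicate 2 or DMSO replicate 1 (adjusted p = 0.165, 0.0522, 0.0641, 0.0814 and 0.242 in that order). It had 1 to 5 counts per library in DU145. The partners of ISG15 conjugation that are no members, UBE2L6 and TRIM25, rose by 0.72 and 1.14 in C4-2, while in DU145 TRIM25 rose by 0.21 and UBE2L6 was at 0 in all 6 libraries.

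The GTPases, which coat or wall off pathogens inside the cell, gave values in C4-2 only. MX2, a dynamin-like block to retroviral nuclear entry, stood at 6.59 and 7.63 CPM with DMSO and 27, 25.7 and 25.8 with palbociclib (1.83, SE 0.20). Its neighbour MX1 had 10 and 9 counts with DMSO and 13, 17 and 21 with palbociclib (0.92, adjusted p = 0.0384), a call lost with DESeq2, with no filter and on leaving out palbociclib replicate 2 or 3 or either DMSO library (adjusted p = 0.215, 0.0614, 0.0798, 0.0858, 0.177 and 0.131 in that order). In DU145, MX1 had 2 to 12 counts per library.

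The guanylate-binding proteins GBP1, GBP2 and GBP3 lie in a row on chromosome 1 and received different calls. GBP1 rose by 0.55 (SE 0.06), from 119.8 and 121 to 186, 178 and 182 CPM. GBP3 had a difference of 0.15 (adjusted p = 0.0706) and did not pass, though it did when scaled by library totals (0.20, adjusted p = 0.0168) and with the stricter filter (0.17, adjusted p = 0.0476). GBP2 was the only one of the 37 members tested that was called lower in C4-2, from 7.16 and 7.96 CPM to 2.77, 6.13 and 4.14 CPM (-0.85, SE 0.33, adjusted p = 0.0248). This rests on 25 and 24 counts against 8, 16 and 14, and was lost with DESeq2 and on leaving out palbociclib replicate 1 or 3 or either DMSO library (adjusted p = 0.197, 0.125, 0.0557, 0.0683 and 0.123 in that order). In DU145 GBP2 had 2, 2 and 3 counts with DMSO and 7, 12 and 12 with palbociclib, too few for the test, and GBP1 and GBP3 had 0 and 2 counts in total. Genes of this family are similar in sequence, so their counts are uncertain to that extent.

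BST2 (tetherin), which holds budding virus at the cell surface, rose slightly in both lines from a high level. It stood at 138 and 142 CPM with DMSO and 167, 166 and 177 with palbociclib in C4-2, and at 141, 142 and 153 and 185, 193 and 204 CPM in DU145. The groups did not overlap in either line, with changes of 0.24 (SE 0.06, adjusted p = 0.00132) and 0.44 (SE 0.07, adjusted p = 2.97e-05). The interaction of 0.23 (adjusted p = 0.0804) passed with the replicate number as a block (0.28, adjusted p = 0.00916), which brings the members with a higher response in DU145 to 2.

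LGALS3BP, a secreted glycoprotein that binds galectins, went in opposite directions. In C4-2 it stood at 356 and 358 CPM with DMSO and 495, 499 and 494 with palbociclib (0.43, SE 0.04, adjusted p = 6.01e-12). In DU145 it stood at 10.4, 12.1 and 14.1 CPM and 5.86, 4.49 and 5.16 CPM (-1.22, SE 0.15, adjusted p = 2.36e-06). The groups were apart in both lines, and the interaction was -1.61 (adjusted p = 6.9e-11). PLSCR1, a membrane protein that blocks viral entry, rose from 54.7 and 55.7 to 139, 139 and 131 CPM in C4-2 (1.26, SE 0.08, adjusted p = 4.6e-17). In DU145 it had 26.3, 28.9 and 28.7 CPM with DMSO and 32.2, 34.5 and 28.1 with palbociclib, in overlapping groups, a difference of 0.20 (adjusted p = 0.0789) that passed once the replicate number was a block (0.20, adjusted p = 0.0269), on leaving out palbociclib replicate 3 (0.28, adjusted p = 0.0116) and on leaving out both libraries numbered 3 (0.30, adjusted p = 0.00507). Its interaction was -1.02 (adjusted p = 3.54e-07).

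All 7 enzymes of RNA and nucleotides rose in C4-2, where 25.2% of all genes did. In DU145 2 of 5 tested fell and 1 rose, near the shares over all genes (29.2% and 28.8%). DDX60 and DDX60L are adjacent helicase genes on chromosome 4 that aid RNA sensing. DDX60 rose from 44.4 and 44.8 to 91.4, 91.2 and 84.4 CPM in C4-2 (0.95, SE 0.10) and fell from 2.61, 2.66 and 2.13 to 1.27, 1.09 and 0.96 CPM in DU145 (-1.13, SE 0.27). DDX60L rose from 30.7 and 32.2 to 84.1, 80.1 and 74.9 CPM (1.29, SE 0.11) and fell from 9.75, 8.55 and 7.81 to 5.43, 3.09 and 4.74 CPM (-0.95, SE 0.18). For both the groups did not overlap in either line, and the interactions were -2.04 (adjusted p = 4.82e-08) and -2.21 (adjusted p = 7.01e-10). The pair is alike in sequence, and DDX60L overlaps PALLD on the other strand, so reads may be split between them.

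ZNFX1, a helicase that binds double-stranded RNA at mitochondria, rose in both lines. It stood at 177 and 182 CPM with DMSO and 271, 275 and 277 with palbociclib in C4-2 (0.57, SE 0.05, adjusted p = 3.2e-12). In DU145 it went from 83.7, 74.9 and 80.1 to 98.6, 104 and 105 CPM (0.39, SE 0.07, adjusted p = 0.000139). The interaction of ZNFX1 was -0.14 (adjusted p = 0.290) and did not pass, and its call changed in 2 other settings. ZNFX1 overlaps DDX27 and ZFAS1 on the other strand. HELZ2, a related helicase, rose in C4-2 (0.83) and had a difference of -0.13 in DU145 (adjusted p = 0.259; -0.23, adjusted p = 0.0266, without palbociclib replicate 3), with an interaction of -0.92 (adjusted p = 6.49e-07).

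For the pair on chromosome 2, RSAD2 (viperin), which makes a chain-terminating nucleotide, rose by 1.39 in C4-2, from 42 and 44 counts to 90, 99 and 129. CMPK2, a mitochondrial nucleotide kinase that overlaps RSAD2 by 830 bases on the other strand, rose by 1.33 (adjusted p = 0.0208) on 4 to 16 counts, and the call was lost with DESeq2 and on leaving out palbociclib replicate 3 or either DMSO library (adjusted p = 0.153, 0.0637, 0.0941 and 0.156 in that order). In DU145 RSAD2 had 1 count in total and CMPK2 had 0. The exonuclease ISG20 rose by 0.88 in C4-2 (adjusted p = 0.0242), which was lost with DESeq2 and on leaving out palbociclib replicate 1 or either DMSO library (adjusted p = 0.179, 0.0885, 0.192 and 0.0508 in that order). In DU145 its difference was 0.04 (adjusted p = 0.875).

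The ADP-ribosyltransferases and their partner DTX3L all rose in C4-2, and most fell in DU145. PARP9 forms a complex with the ubiquitin ligase DTX3L. PARP14 is a large macrodomain enzyme whose gene lies 105414 bases from DTX3L on chromosome 3. PARP10 and PARP12 add single ADP-ribose units to proteins. The C4-2 rises were 0.54 to 1.11 on the log2 scale. In DU145 4 of 5 fell (29.2% of all genes), with DTX3L not called, and all 5 interactions passed as lower (21.9% of all genes).

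PARP9 stood at 59.9 and 54.1 CPM with DMSO and 137, 119 and 119 with palbociclib in C4-2 (1.08, SE 0.09, adjusted p = 4.06e-14). In DU145 it fell from 21.4, 20.9 and 20.5 to 8.15, 10.9 and 7.32 CPM (-1.23, SE 0.13, adjusted p = 3.06e-07). Its 3 DU145 palbociclib libraries all lay far under the DMSO range. DTX3L rose from 107 and 107 to 237, 237 and 241 CPM in C4-2 (1.11, SE 0.06). In DU145 it had 54.3, 52 and 46.1 CPM with DMSO and 59.2, 55 and 50.9 with palbociclib, in overlapping groups, with a difference of 0.14 (adjusted p = 0.158). That difference passed as a rise once the replicate number was a block (0.14, adjusted p = 0.0333) and on leaving out palbociclib replicate 3 (0.19, adjusted p = 0.0482). The interactions were -2.28 for PARP9 (adjusted p = 1.3e-12) and -0.94 for DTX3L (adjusted p = 7.91e-08).

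PARP14 stood at 224 and 240.1 CPM with DMSO and 503, 507 and 534 with palbociclib in C4-2 (1.11, SE 0.05, adjusted p = 1.38e-23). In DU145 it had 51.7, 50.3 and 39.4 CPM and 39.8, 39.2 and 36.8 CPM, groups that overlapped, with a fall of 0.26 on the log2 scale (SE 0.09, adjusted p = 0.0234). That call was lost on leaving out palbociclib replicate 2, DMSO replicate 1 or DMSO replicate 2 (adjusted p = 0.0584, 0.133 and 0.0915), while the interaction was -1.33 (adjusted p = 6.46e-11). PARP10 rose from 62.2 and 63 to 94.5, 99.3 and 88.8 CPM in C4-2 (0.54, SE 0.09) and fell from 16.9, 17.6 and 20.8 to 7.61, 7.89 and 9.3 CPM in DU145 (-1.13, SE 0.13). It overlaps GRINA, a more highly counted gene, on the other strand. PARP12 rose from 59.6 and 58.7 to 107, 127 and 115 CPM (0.92, SE 0.09) and fell from 13.8, 14.8 and 15.3 to 7.97, 9.95 and 8.28 CPM (-0.72, SE 0.12). For PARP10 and PARP12 the groups were apart in both lines, and the interactions were -1.64 and -1.61 (adjusted p = 9.42e-10 and 9.89e-10).

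SAMD9 and SAMD9L are neighbouring genes on chromosome 7 whose products stop protein synthesis and restrain poxviruses and cell growth. Both rose in C4-2 and fell in DU145. SAMD9 went from 80.5 and 81.9 to 187, 183 and 169 CPM in C4-2 (1.10, SE 0.07) and from 27.4, 33.8 and 20.4 to 17.7, 20.7 and 18.4 CPM in DU145 (-0.50, SE 0.14, adjusted p = 0.00445), where the groups overlapped. The DU145 value of SAMD9 was -0.32 without DMSO replicate 2 and -0.65 without both libraries numbered 3. SAMD9L went from 95.4 and 88.5 to 184, 177 and 213 CPM in C4-2 (1.02, SE 0.07).

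In DU145 SAMD9L had 4.59, 4.95 and 4.88 CPM with DMSO, which were 74, 80 and 80 counts, and 0.785, 0.97 and 0.6 CPM with palbociclib, which were 13, 16 and 10 counts. That fall of 2.58 on the log2 scale (SE 0.25, adjusted p = 1.1e-07), 5.98-fold, was the largest of the 25 members tested in DU145. The interactions were -1.56 (adjusted p = 7.7e-09) for SAMD9 and -3.55 (adjusted p = 8.21e-14) for SAMD9L, the largest of the 25.

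Proteins of nuclear bodies and the TRIM family rose in C4-2, 4 of 4 (25.2% of all genes), and in DU145 2 of 3 tested fell (29.2% of all genes), of which the SP100 call depends on single libraries. SP100, a scaffold of PML bodies, rose from 90.6 and 91.9 to 155, 155 and 143 CPM in C4-2 (0.68, SE 0.07). In DU145 it had 18.4, 18.1 and 14.4 CPM with DMSO and 12.3, 15.3 and 12.1 with palbociclib, in overlapping groups (-0.34, SE 0.12, adjusted p = 0.0265). That call was lost on leaving out palbociclib replicate 1, palbociclib replicate 3, DMSO replicate 1 or DMSO replicate 2 (adjusted p = 0.105, 0.0709, 0.107 and 0.0859). Its interaction was -0.98 (adjusted p = 3.66e-06). TRIM14, an adaptor in RNA sensing, rose from 71.4 and 68.3 to 86.9, 110.0 and 95.6 CPM in C4-2 (0.43, SE 0.09) and fell from 93.2, 86.6 and 96 to 66.4, 69 and 69 CPM in DU145 (-0.41, SE 0.07), with groups apart in both and an interaction of -0.80 (adjusted p = 5.97e-06). It overlaps NANS on the other strand.

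SP110, a relative of SP100, rose by 0.78 in C4-2 and had a difference of 0.56 in DU145 (adjusted p = 0.13) on 15 to 32 counts per library. TRIM22, a restriction factor that overlaps TRIM5 on the other strand, rose by 1.22 in C4-2 (SE 0.21). In DU145 it had 12, 11 and 9 counts with DMSO and 8, 9 and 6 with palbociclib and was not tested.

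The IFI genes held the largest rise of the set. IFI44L, which feeds back on interferon responses, stood at 41.6 and 37.5 CPM with DMSO and 190.0, 192 and 190.3 with palbociclib in C4-2, a 4.65-fold rise (2.22, SE 0.08, adjusted p = 1.97e-25). Its neighbour IFI44 rose by 0.85 (SE 0.09), from 55.6 and 59.4 to 106, 104 and 109 CPM. EPSTI1, a gene named for epithelial-stromal interaction, rose by 1.89 (SE 0.22), from 21 and 17 counts to 67, 55 and 77. In DU145 these 3 genes held 1 count between them.

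IFI6, a membrane protein that protects cells from virus-induced death, went in opposite directions. It stood at 41.8 and 53.7 CPM with DMSO and 109.7, 104 and 115 with palbociclib in C4-2 (1.17, SE 0.09), and at 12.9, 12.9 and 13.7 and 8.27, 9.4 and 8.7 CPM in DU145 (-0.56, SE 0.12, adjusted p = 0.000527). IFI35, a regulator of innate signalling, rose from 24.6 and 26.5 to 55, 62.1 and 53.6 CPM in C4-2 (1.10, SE 0.12) and fell from 74, 74.2 and 81.5 to 50.1, 48.4 and 49.7 CPM in DU145 (-0.61, SE 0.08, adjusted p = 2.11e-06). The groups of both genes were apart in both lines, and their interactions were -1.69 (adjusted p = 6.41e-10) and -1.68 (adjusted p = 9.42e-11).

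IFI27, a relative of IFI6, was called higher in both lines. In DU145 it went from 2.3, 1.55 and 2.93 to 4.71, 3.52 and 5.58 CPM, with no overlap (1.05, SE 0.25, adjusted p = 0.00136). In C4-2 it had 9 and 0 counts with DMSO and 12, 6 and 22 with palbociclib, groups that overlapped (1.63, SE 0.58, adjusted p = 0.016). The C4-2 call was lost without DMSO replicate 2 (0.73, adjusted p = 0.317) and with DESeq2 (1.68, adjusted p = 0.389). Without palbociclib replicate 1 or 3 the gene was too low to test, and without DMSO replicate 1 the remaining DMSO library was at 0. The interaction was -0.57 (adjusted p = 0.618) and did not pass. It was 0.35 without C4-2 DMSO replicate 2, a change of sign.

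**Figure D4:**
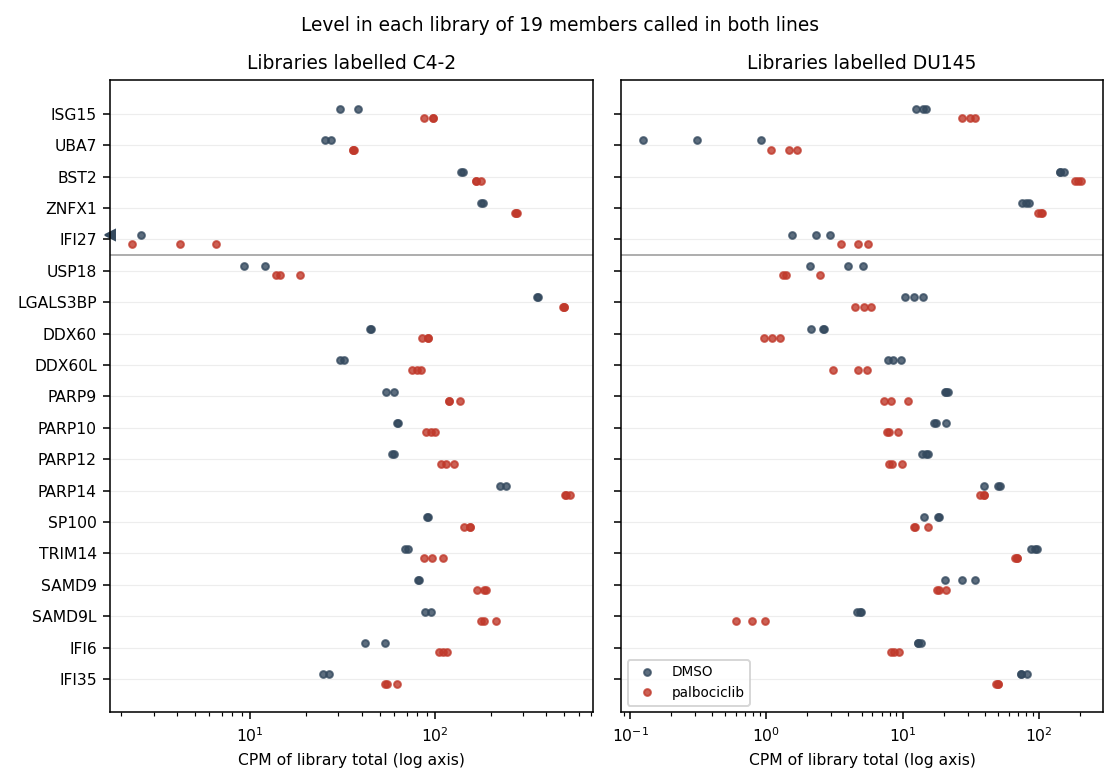
Level in each library as CPM (log axis) of the 19 members called in both lines, with DMSO in dark and palbociclib in red; members above the grey line rose in both lines and those below rose in C4-2 and fell in DU145, and the arrow at the left edge marks the C4-2 DMSO library with 0 counts of IFI27. Below the line the red points lie to the right of the dark ones in C4-2 and mostly to the left in DU145, and SAMD9L shows the widest gap in DU145.

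Neighbouring members did not always keep the same proportion, and this was read from the ratio of their counts in each library, which needs no scaling and was not tested. The ratio of PARP9 to DTX3L was 0.506 and 0.56 with DMSO and 0.494 to 0.577 with palbociclib in C4-2. In DU145 it went from 0.393 to 0.444 with DMSO to 0.138 to 0.198 with palbociclib, with no overlap. The genes overlap by 340 bases on opposite strands, and without strand the reads of that stretch cannot be told apart. PARP14 lies further off, 105414 bases from DTX3L with 1 coding gene between. Its ratio to DTX3L likewise stayed within 2.09 to 2.25 in all C4-2 libraries. In DU145 it went from 0.854 to 0.968 with DMSO to 0.672 to 0.724 with palbociclib.

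The ratio of SAMD9L to SAMD9 was 1.08 and 1.19 with DMSO and 0.969 to 1.26 with palbociclib in C4-2, against 0.147 to 0.239 and 0.033 to 0.047 in DU145. IFI44L to IFI44 rose from 0.631 and 0.747 to 1.74 to 1.85 in C4-2, although only 3650 bases lie between the genes. GBP1 to GBP3 went from 1.15 and 1.17 to 1.5 to 1.59, and DDX60L to DDX60 from 0.69 and 0.719 to 0.878 to 0.92 in C4-2. In DU145 the DDX60L ratio was 3.21 to 3.74 with DMSO and 2.83 to 4.94 with palbociclib, which overlap.

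**Figure D5:**
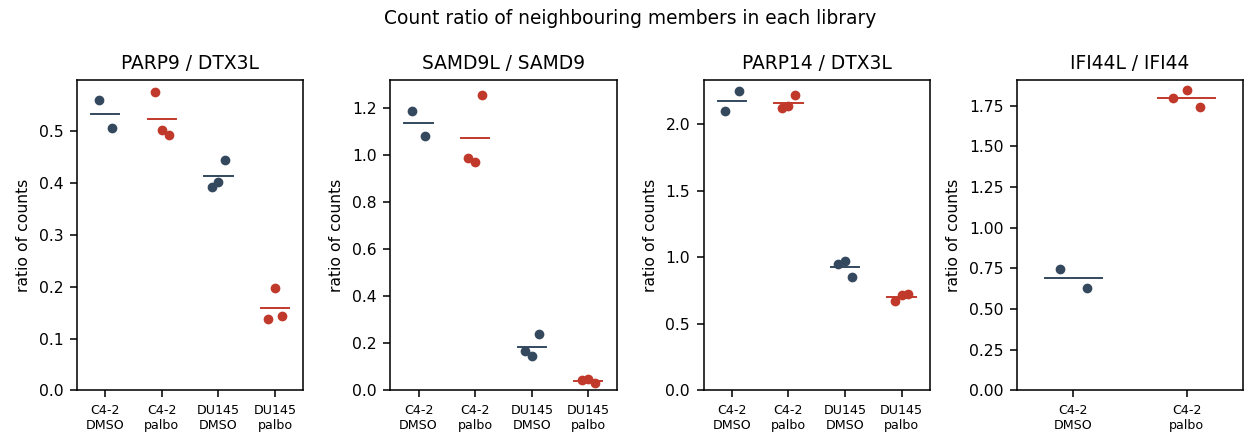
Ratio of the counts of neighbouring members in each library for 4 pairs, by line and treatment, with bars at the group mean; DMSO is dark and palbociclib red, and the IFI44L panel has no DU145 points because IFI44 was at 0 there. PARP9 to DTX3L and SAMD9L to SAMD9 overlap between treatments in C4-2 and are lower with palbociclib in DU145, while IFI44L to IFI44 rises in C4-2.

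Members also differed in level, which was compared between genes only as CPM per kilobase of the gene length given in the DU145 table. With DMSO in C4-2 the highest was 125 ± 2.37 for BST2 and 99.7 ± 0.503 for LGALS3BP, followed by 55.2 ± 9.71 for IFI6, 36.6 ± 5.61 for ISG15 and 28.2 ± 1.31 for IFI44 (mean ± SD, n = 2). With palbociclib the order of those 5 was 152 ± 5.24 for BST2, 138 ± 0.8 for LGALS3BP, 127 ± 6.47 for IFI6, 99.5 ± 6.47 for ISG15 and 52.2 ± 1.33 for IFI44 (n = 3). In each C4-2 group every step in that order was larger than the SDs of the neighbours added together. In DU145 with DMSO, BST2 was at 130.0 ± 6.1, IFI35 at 38.8 ± 2.15, TRIM14 at 16.8 ± 0.88, IFI6 at 15.2 ± 0.511 and ISG15 at 14.7 ± 1.18 (n = 3). IFI6 and ISG15 did not differ there beyond their spread. With palbociclib in DU145, ISG15 stood at 32.7 ± 3.62, above IFI35 at 25 ± 0.451.

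The genes upstream of the set were called in both directions in each line. Of 30 ligands, receptors, kinases, factors, inhibitors and conjugation partners, 18 were tested in C4-2. Of these 7 were higher and 3 lower (25.2% and 26.6% of all genes). In DU145 17 were tested, with 5 higher and 4 lower (28.8% and 29.2% of all genes). Calls in both directions were thus common over all genes too, and whether the list differs from them was not tested. The 4 lower genes in DU145 became 2 without palbociclib replicate 2 or without DMSO replicate 1. Ligands were near absent: 8 of 10 were at 0 in all C4-2 libraries and 7 of 10 in all DU145 libraries. IFNB1 had 0 to 2 counts per C4-2 library and 0 in DU145, and IFNE had 2 to 9 and 0 to 6. A transcript below these limits was not detectable at this depth.

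Among the receptors, IFNAR1 rose in both lines, by 0.23 in C4-2 (SE 0.08) and 0.36 in DU145 (SE 0.09). IFNGR1 rose in C4-2 (0.60, SE 0.10) and had a difference of 0.00090 in DU145, with an interaction of -0.56 (adjusted p = 0.00297). IFNLR1 fell in C4-2 (-1.19, adjusted p = 0.0182) on 4 to 17 counts, and IFNAR2 rose in DU145 (0.93, adjusted p = 0.0399) on 12 to 44 counts. The calls of IFNAR1 and IFNLR1 in C4-2 were lost with DESeq2 (adjusted p = 0.111 and 0.151) and without DMSO replicate 2 (adjusted p = 0.412 and 0.231), and IFNLR1 also without palbociclib replicate 2 (adjusted p = 0.0526). The IFNAR2 call was lost with DESeq2 (adjusted p = 0.0531) and on leaving out a DU145 library numbered 2 or 3 of either treatment (adjusted p = 0.0798 to 0.166).

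STAT2, a part of the factor that binds the ISRE, rose in C4-2 and fell in DU145, as 14 members did. It rose by 1.22 in C4-2 (SE 0.10, adjusted p = 2.69e-14) and fell by 0.37 on the log2 scale in DU145 (SE 0.08, adjusted p = 0.00078), with an interaction of -1.55 (adjusted p = 8.86e-11). JAK2 rose by 0.49 in C4-2 (adjusted p = 0.0576 with DESeq2) and fell by 0.63 in DU145, with an interaction of -1.09 (adjusted p = 2.09e-05). IRF1 rose by 0.60 in C4-2, with a difference of -0.17 in DU145 (adjusted p = 0.326), and IRF9 had 8 to 23 counts and no call in C4-2 and 2 to 21 counts and no call in DU145.

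IRF3, a factor that acts ahead of interferon itself, went the other way, with a fall of 0.69 on the log2 scale in C4-2 (SE 0.12, adjusted p = 3.88e-06) and a rise of 0.31 in DU145 (SE 0.09, adjusted p = 0.00843), and an interaction of 1.04 (adjusted p = 8.67e-06). That rise was lost without DU145 DMSO replicate 1 (0.23, adjusted p = 0.0723). Of the inhibitors, SOCS3 fell in both lines (-0.55 and -0.34), and PIAS1 rose in DU145 (0.72) with a difference of 0.11 in C4-2 (adjusted p = 0.362). The DU145 SOCS3 call was lost with DESeq2 and on leaving out palbociclib replicate 1 or 2 or DMSO replicate 1 (adjusted p = 0.0544, 0.092, 0.0725 and 0.131 in that order). JAK1 fell by 0.16 in DU145 (adjusted p = 0.0396), a call lost on leaving out palbociclib replicate 2, palbociclib replicate 3, DMSO replicate 1 or DMSO replicate 2 (adjusted p = 0.0962, 0.114, 0.0908 and 0.118), and the TRIM25 rise there was lost without DMSO replicate 1 (adjusted p = 0.0567).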

How the data were processed

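RNA was sequenced from 12 libraries of 2 human prostate cancer lines treated with palbociclib or DMSO, and the authors deposited raw counts per gene, in 1 table per line. Per the file headers, the C4-2 counts came from featureCounts 2.0.1 on paired reads over exons by gene with Ensembl annotation 107 and no strand option, from alignments named for HISAT. How the DU145 table was counted is not given in the sources used here. Both used hg38, per the submitters' processing notes, and per the labels' protocols the kit was directional. Counting without strand cannot separate overlapping genes on opposite strands, which concerns 16 members.

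Groups were taken from the labels. The empty C4-2 DMSO column was left out, which left 11 libraries. Each line was fitted alone, over all its genes, with edgeR 4.0.16 in R 4.3.3 (TMM scaling, filterByExpr, quasi-likelihood test, Benjamini-Hochberg threshold 0.05), and a joint fit over genes in both tables gave the interaction, DU145 change minus C4-2 change, counted over genes tested in both lines. Levels were not compared between tables. A standard error is the log2 fold change divided by the square root of F. Alternatives were DESeq2 1.42.0, its size factors in edgeR, library totals, no filter, a stricter filter (at least 10 counts in every library of 1 group and a mean of 5 CPM), the replicate number as a block, and leaving out single libraries or both DU145 libraries numbered 3.

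Replicate numbers are shared between treatments. In DU145 the same-numbered libraries deviated together from their group means (r = 0.114, 0.188 and 0.399 across genes). A pairing by number was read from the data alone and entered only the replicate block. The main fits and their calls ignored it. Palbociclib 1 correlated more with DMSO 2 (0.201) than with its own number, and palbociclib 2 with DMSO 1 at 0.089, so the values mainly set number 3 apart.

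The members and the other lists were chosen with earlier results of these data known. Library values are given for up to 6 called members per direction and line with the smallest adjusted p, for members called in opposite directions, and for the 6 smallest interaction p-values, and adjacent members are described side by side. Other members are given by value or count. Promoter windows came from the RefSeq table of GRCh38.p14. One gene of the upstream list is not reported here and is not in the counts of that list.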

Additional observations from a re-analysis of the deposited data

Results flagged for a closer look

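The response to palbociclib differed between the lines for 18 of 25 members tested in both, by the interaction test of edgeR. The same test called 50.6% of all 11007 genes (21.9% lower and 28.7% higher in DU145). Values are given here as the DU145 change minus the C4-2 change on the log2 scale. For the members that rose in C4-2 and fell in DU145 it was -3.55 for SAMD9L, -2.28 for PARP9, -2.21 for DDX60L, -2.04 for DDX60, -1.69 for IFI6, -1.68 for IFI35, -1.64 for PARP10, -1.61 for PARP12, -1.61 for LGALS3BP, -1.56 for SAMD9, -1.55 for USP18, -1.33 for PARP14, -0.98 for SP100 and -0.80 for TRIM14. For members that rose in C4-2 and were not called in DU145 it was -1.02 for PLSCR1, -0.94 for DTX3L and -0.92 for HELZ2. For UBA7, which rose in both, it was 1.25. Line, table and depth change together in this contrast and cannot be told apart: the lines lie in separate tables, and the mean library total was 5.33 times higher in DU145.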

How the results depend on the processing

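Of the C4-2 members, 27 (DESeq2) to 35 were called higher under the alternatives run, 11 to 14 of the DU145 members lower, and 17 to 18 interactions lower. The count of 1 lower member in C4-2 became 0 with DESeq2 and 0 with the replicate block, and 0 to 1 without single libraries. The 5 higher members in DU145 became 3 with the stricter filter. The 1 higher interaction became 2 with the replicate block and 2 without both DU145 libraries numbered 3, and 0 to 2 without single libraries. The 4 lower upstream genes in DU145 became 2 to 4 without single libraries. Calls over all C4-2 genes numbered 6184 with edgeR and 3793 with DESeq2. Lower calls over all DU145 genes ran from 3680 of 11065 tested with the stricter filter to 4996 of 15361 with the replicate block. Lower interactions over all 11007 genes numbered 2412 in the main fit and 2951 without both DU145 libraries numbered 3. Where a C4-2 DMSO library was left out, the remaining one was assumed to vary like the palbociclib group. The cause of these shifts was not tested.

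Signs turned for values that the main tests did not call. In C4-2, TYK2 was -0.0083 without the filter and -0.015 to 0.060 without single libraries. IRF9 there was -0.052 to 1.19 without single libraries. In DU145, ISG20 was -0.062 to 0.11, and IFNLR1 -0.27 to 0.93 without single libraries and -0.35 without both libraries numbered 3. IFNGR1 was -0.023 with library totals, -0.023 without the filter, -0.0085 with the stricter filter and -0.023 to 0.058 without single libraries, and IRF9 was -1.39 to 0.22. The interaction of IFI27 was 0.35 without C4-2 DMSO replicate 2 and -7.52 without DMSO replicate 1, where the DMSO library left is at 0 and the fitted value is no bound.

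With the replicate block, DU145 gained DTX3L and PLSCR1 as higher and the interaction of BST2 passed (0.28), and it changed no other call of a member there. In C4-2 the numbers are only shared (r = -0.0057 for both pairs), and the block left 30 members higher and 0 lower. The C4-2 calls lost with the block were those of USP18, MX1, CMPK2, IFI27 and GBP2, besides the settings given for them above. The 13 members untested in DU145 and XAF1 in C4-2 had too few counts for the filter.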

Other observations

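Added over all 38 members, the C4-2 libraries held 2374 and 2431 CPM with DMSO and 4321 to 4367 CPM with palbociclib. The DU145 libraries held 732 to 746 CPM with DMSO and 695 to 722 CPM with palbociclib. The lines lie in separate tables, so these sums and the shares below are read between treatments within each line only. BST2, the tetherin gene, made up 5.81% and 5.82% of the summed CPM in C4-2 with DMSO and 3.81% to 4.05% with palbociclib. In DU145 its share was 19.1% to 20.6% with DMSO and 26.6% to 28.2% with palbociclib.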
